A study of Mus musculus with 3 samples.

Results

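The ribosomal protein genes encode the proteins of the large and the small subunit of the cytosolic ribosome. Their probes were taken from 3 two-colour arrays by gene name, as Rpl or Rps followed by a number and an optional suffix, with Rplp0, Rplp1, Rplp2 and Rpsa added and the Rps6k kinases left out. The rule used names and no measured values. It found 139 of the 41174 gene probes of the array, standing for 83 of the 27674 names those probes carry, with 83 probes of 51 large subunit genes and 56 probes of 32 small subunit genes. A further 6 probes carried such a name in 1 of the 3 files only and were left out. A single probe read 41 of the genes and several probes read the other 42.

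The samples were hearts of mouse embryos at embryonic day 15.5 on the C57BL/6 background. Each of the 3 arrays set RNA pooled from 2 hearts labelled Lrrc10-/- (Cy5) against RNA pooled from 2 Lrrc10+/+ littermate hearts (Cy3), so 1 array is 1 replicate. The product of Lrrc10 is a cardiomyocyte protein with leucine-rich repeats, and the comparison asked which transcripts differ when it is lost before birth. The deletion is of the germ line, in a line backcrossed to C57BL/6, and whole hearts hold every cell type of the organ. No array had the dyes swapped, so dye and genotype cannot be told apart. An adult age stands in 1 label entry of the wild-type channel of each array, against the embryonic age given everywhere else.

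Ribosomal proteins assemble with ribosomal RNA in the nucleolus into a large subunit, which joins amino acids, and a small subunit, which reads the messenger RNA. Their messenger RNAs are among the most abundant of a growing cell and start with a run of pyrimidines, the 5′ terminal oligopyrimidine (TOP) tract, through which the mTORC1 kinase controls their translation. A few members have close relatives with restricted expression, such as Rpl3l, a relative of Rpl3 known from heart and skeletal muscle.

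The targeted gene and the markers of the tissue were examined first. Lrrc10 had log2 ratios of Cy5 over Cy3 of 3.99, 4.78 and 4.45 on replicates 1, 2 and 3, so it was higher in the channel labelled Lrrc10-/- on 3 of 3 arrays, which goes against the label. Its limma adjusted p was 0.000387. All directions below are for the channel labelled Lrrc10-/- over the channel labelled wild type, and they would change places if the labels were exchanged. Of 10 cardiomyocyte markers 10 were tested, and the brightest probe of 7 was saturated. The 5 with a never-saturated probe had means from -0.30 to -0.02, none above 0, with medians of -0.29, 0.03 and -0.29 on the 3 arrays. Of 4 smooth muscle markers, none of the never-saturated probes had a mean above 0 either, with medians of -0.08, -0.13 and -0.14. Of 8 liver markers 5 were tested, with median log2 ratios of 0.71, -1.35 and 0.08 on the 3 arrays. Their part in the results was not tested. Differences in the number of cells of a type and in RNA per cell cannot be told apart in whole hearts.

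The members lay at the bright end of the arrays. On replicates 1, 2 and 3 their median processed Cy5 signal was 46731, 37245 and 65288, where that of all gene probes was 183, 226 and 142. Their median processed Cy3 signal was 40768, 44535 and 80902, where that of all gene probes was 180, 229 and 141. Saturation of a channel means here that the software marked the spot, or that its mean signal came within 1% of the highest value the scanner can give. By that measure 30.9%, 62.6% and 62.6% of the members were saturated in at least 1 channel on replicates 1, 2 and 3, against 0.300%, 1.30% and 1.34% of the other probes.

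Saturation set what could be read from each member. Over the 3 arrays, 90 of the 139 probes were saturated at least once and 49 never were. Of the 90, 75 were saturated in both channels on 1 or more arrays, 13 of them on all 3. The brightest probe of 70 of the 83 genes was saturated on 1 or more arrays. A spot at the limit in both channels holds no ratio. On each array such spots collapsed onto 1 value, with medians of -0.331, -0.125 and -0.163 on the log2 scale for members, and of -0.331, -0.125 and -0.162 for the 46, 318 and 323 other probes at the limit. Where only Cy5 was saturated, the log2 ratio is a lower bound.

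**Figure D1:**
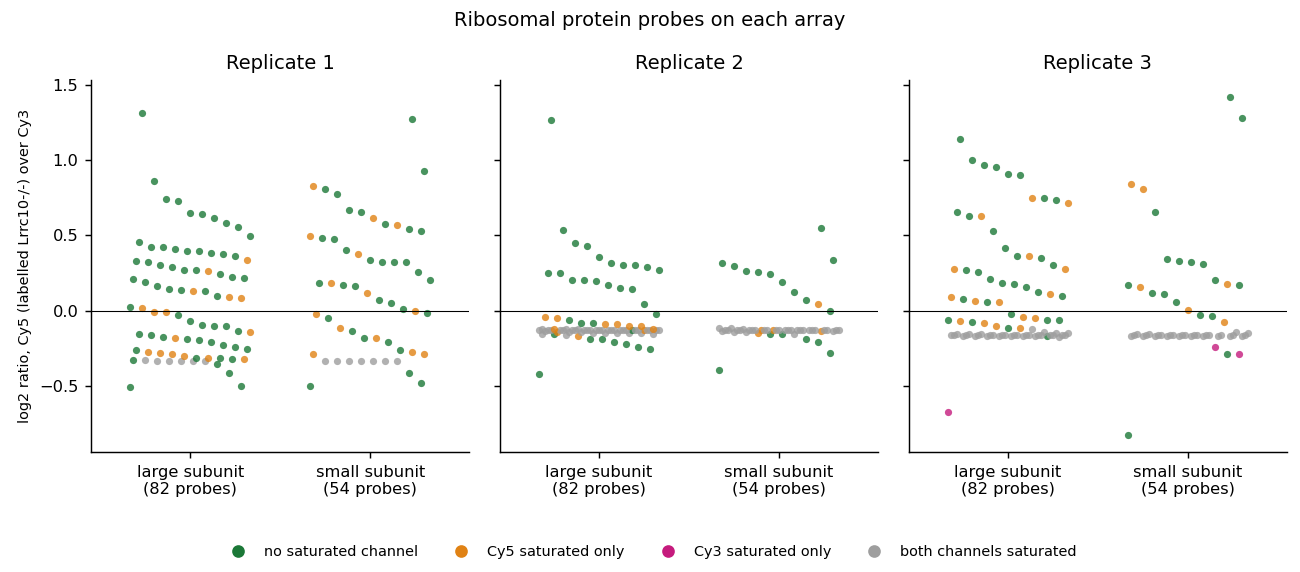
Log2 ratio of Cy5 over Cy3 (y axis, after loess) of the 136 tested ribosomal protein probes on each array, by subunit, with 1 point per probe coloured by which channel was saturated on that array. The grey points, saturated in both channels, lie in a flat band at about -0.331, -0.125 and -0.163 on replicates 1, 2 and 3, while the green points spread on both sides of 0.

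The brightest probe of each gene gave medians below 0, except for the small subunit on replicate 1. Over 51 large subunit genes the median log2 ratio was -0.07, -0.12 and -0.15 on replicates 1, 2 and 3, and over 32 small subunit genes it was 0.06, -0.12 and -0.16. Over all 18992 genes tested the medians were 0.02, 0.04 and 0.02. On replicates 2 and 3 the medians of both subunits lie within 0.01 of the value of spots saturated in both channels, so they carry that limit and no direction for the genes.

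Probes with no saturated spot gave medians above 0 for both subunits. There were 46 such tested members, 30 of large and 16 of small subunit genes. The median log2 ratio of the large subunit probes was 0.21, 0.17 and 0.26 on replicates 1, 2 and 3, and that of the small subunit probes was 0.26, 0.16 and 0.19. Over all 27634 tested probes that were never saturated it was -0.01, 0.05 and 0.00. The members' median was above that of the whole array on each of the 3 arrays, at 0.21 ± 0.03 against 0.01 ± 0.03 (mean and SD of the array medians, n = 3), and no test was made of this. The quartiles of the members' means were 0.01 and 0.35.

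Large and small subunit genes did not separate in a way that held over probes and scales. The median of the never-saturated large subunit probes minus that of the small subunit probes was -0.05, 0.02 and 0.07 on the 3 arrays, with a mean of 0.01 ± 0.06 (SD, n = 3). For the brightest probes the mean difference was -0.04 ± 0.07 (SD, n = 3). With the software's processed signals these differences became -0.05 ± 0.07 and 0.08 ± 0.04, so the sign turned with the probes and with the scale. The last was above 0 on all 3 arrays, at 0.06, 0.13 and 0.05. It rests on brightest probes, which were saturated on 1 or more arrays for 70 of the 83 genes. With 3 arrays no exact sign test can reach a p of 0.05.

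**Figure D2:**
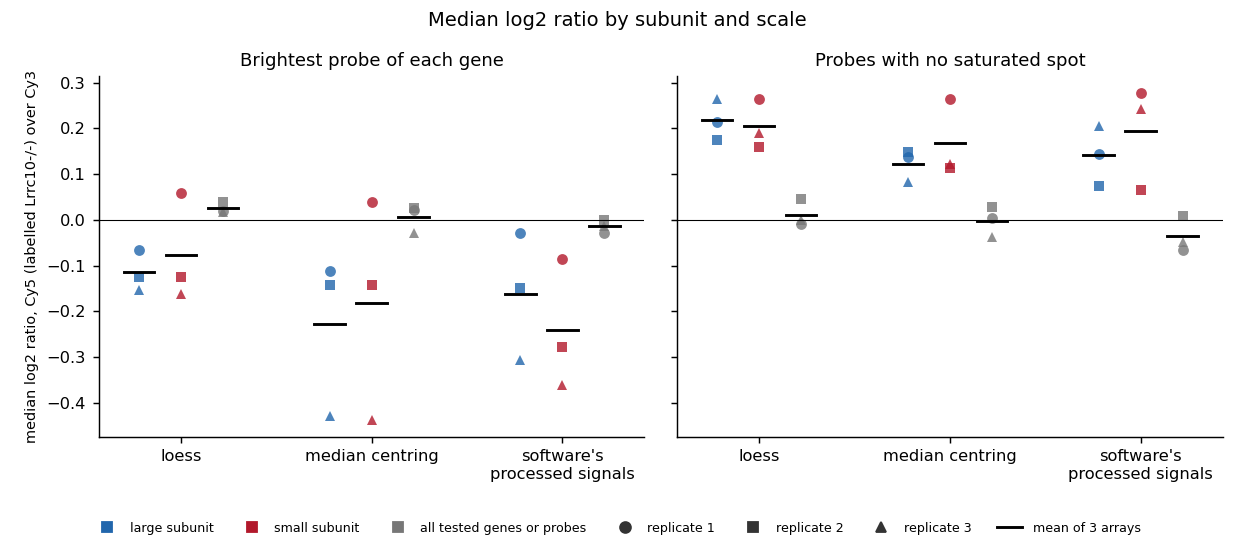
Median log2 ratio of Cy5 over Cy3 (y axis) on each array, for large subunit, small subunit and all tested genes or probes, under 3 ways of scaling (x axis), with a bar at the mean of the 3 arrays. The brightest probes of the members (left) have means below 0 and the never-saturated probes (right) have means above 0, under each scaling, and the subunits overlap.

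The never-saturated members were spread over the whole range of intensity. Above a mean log2 intensity of 14, the median log2 ratio was 0.22 for 15 members and 0.10 for 752 other probes, of which 13 members and 66.5% of the others were above 0. Between 10 and 12, the median was 0.30 for 6 members, all above 0, and 0.01 for the others. Between 12 and 14, 4 of 8 members were above 0, with a median of 0.07. The median GC content of the never-saturated members was 44.2%, against 41.7% for the other never-saturated probes.

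**Figure D3:**
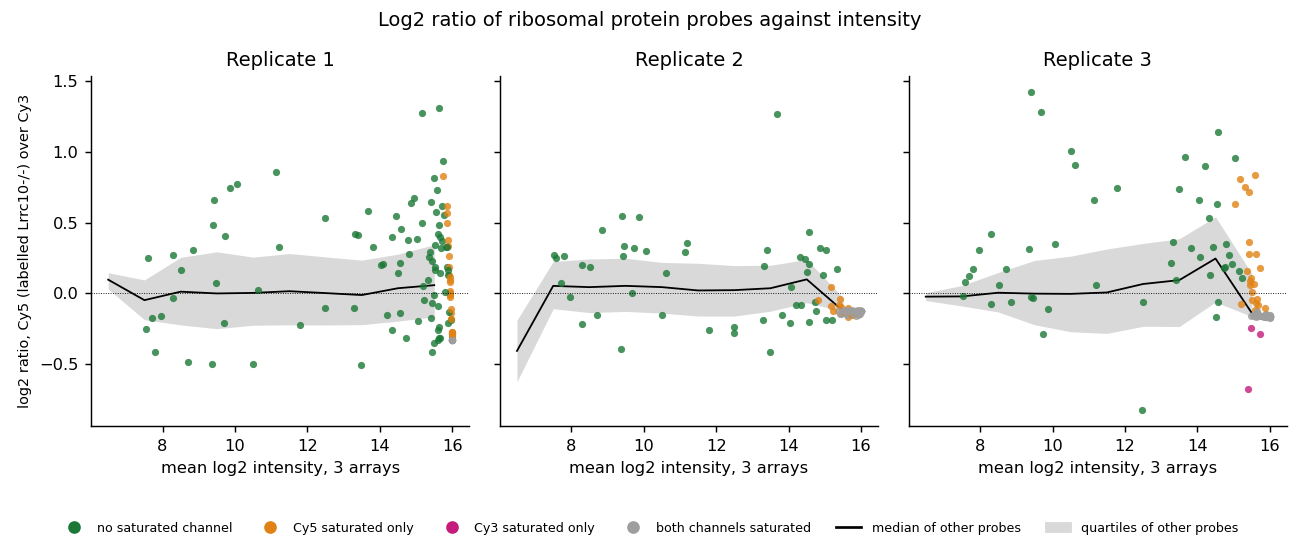
Log2 ratio of the 136 tested ribosomal protein probes on each array (y axis) against their mean log2 intensity over the 3 arrays (x axis), coloured by saturation, over the median and quartiles of all other tested probes in bins of intensity. Members saturated in both channels end in a narrow tip at the right, and those never saturated lie across the range.

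Of 136 tested members, 1 was called higher and 0 lower by limma at an adjusted p under 0.05. That is 0.735% of the members, against 1.39% of all tested probes higher and 0.00353% lower. At an unadjusted p under 0.05, 13 members were higher, 9 of large and 4 of small subunit genes, or 9.56% against 9.07% of all probes. None was lower at that level, against 4.26% of all probes. Saturation limits these counts, since 90 of the 136 had a saturated spot. The 13 saturated in both channels on all arrays had means fixed between -0.207 and -0.201 and could not be called either way. Among never-saturated probes alone, 11 of 46 members were higher at an unadjusted p under 0.05, or 23.9% against 9.15%. At that level 0 of the 46 were lower, against 4.36%. By adjusted p 1 was called higher, or 2.17% against 1.43%. Of the same 46 probes, 18 were higher on all 3 arrays, or 39.1% against 19.4%. On all 3 arrays 2 members were lower, both of the large subunit, or 4.35% against 17.1%.

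The member called was Rpl14, a large subunit protein, read by a single probe (A_51_P232858, chr9:120483689-120483748 of mm9, forward strand). Its log2 ratio was 0.58, 1.27 and 0.97 on replicates 1, 2 and 3, with no saturated spot. All 3 arrays were higher in the channel labelled Lrrc10-/-, and the lowest was replicate 1. The mean was 0.94 ± 0.34 (SD, n = 3), with a limma adjusted p of 0.0367. The call depended on the processing, and the limma adjusted p, or that of the methods' t-test, ran from 0.00182 to 0.520 over the alternatives. It was 0.112 without replicate 1, 0.25 without replicate 2 and 0.144 with the scanner and software version as a block. In those settings, in that order, 2, 1 and 1 of all probes were called higher, against 395 in the main setting. Calls were thus lost over the whole array there, and not for Rpl14 alone. The last 30 bases of the probe are shown because they hold the letters of a polyadenylation signal, in capitals.

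Rpl14, end of probe: gttaaccctaacaAATAAAtttcccaccaa

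Rpl14 was followed, among never-saturated members, by Rps4x, Rpl6, Rpl31 and Rpl30, none of them called. Rpl6, a large subunit protein, had log2 ratios of 0.46, 0.43 and 1.14 at its probe A_52_P23041 (limma adjusted p of 0.144). All were above 0, and replicate 3 was the highest. Its other probe, A_52_P104918, was saturated in both channels on replicate 2 and in Cy5 on replicate 3, and was at -0.32 on replicate 1, where it was not saturated. The probes of Rpl6 thus lay on opposite sides of 0 on replicate 1 after loess. In the deposited ratios both were below 0 there, at -0.02 for A_52_P23041 and -0.21 for A_52_P104918. The probes are shown to let the readings be tied to their targets, A_52_P23041 at chr5:121658466-121658525 and A_52_P104918 at chr5:121658564-121658829 of mm9, both on the forward strand.

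Rpl6 A_52_P23041: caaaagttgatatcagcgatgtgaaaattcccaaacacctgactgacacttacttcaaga
Rpl6 A_52_P104918: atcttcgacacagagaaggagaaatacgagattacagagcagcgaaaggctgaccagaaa

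Rpl30, a large subunit protein that also binds its own transcript, had log2 ratios of 0.38, 0.31 and 0.95 at the probe A_52_P543471 (limma adjusted p of 0.197). Its other probe was saturated in both channels on replicates 2 and 3 and was at 0.37 on replicate 1, close to the 0.38 of the first. Rpl31, a protein near the peptide exit of the large subunit, was read by 2 never-saturated probes that disagreed. The probe A_51_P452820 was at 0.86, 0.29 and 0.66 and A_52_P321875 at -0.10, -0.24 and -0.06. After loess the first was above 0 and the second below 0 on all 3 arrays. In the deposited ratios the second was at 0.14, -0.11 and -0.05, so both were above 0 on replicate 1. They lie within the same stretch of chromosome 1, at positions 39428508 to 39428567 and 39428271 to 39428330 of mm9.

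The lowest never-saturated members were probes of Rpsa, Rps19, Rps24, Rpl31 and Rpl22l1. Rps24 and Rps19 are small subunit proteins mutated in Diamond-Blackfan anaemia. Rps24 was at -0.48, -0.15 and 0.17 at A_52_P537084, and at 0.07, 0.33 and -0.03 at a further never-saturated probe. Each probe of Rps24 changed sign between arrays. Its brightest probe was saturated in both channels on replicates 2 and 3.

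Rps19 differed between arrays more than any fold it showed on average. Its probe A_51_P337290 was at 0.53, -0.28 and -0.82 on replicates 1, 2 and 3, with a mean of -0.19 ± 0.68 (SD, n = 3; limma adjusted p of 0.768). The brightest probe was at -0.01 on replicate 1 and saturated in both channels on the others. The remaining probe, A_52_P129131, was too dim to be tested and was at 0.11, -0.52 and 0.06.

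Rpsa, a small subunit protein that is also known as a laminin receptor, was read by 2 never-saturated probes. A_51_P439092 was at 0.67, 0.13 and 0.21 (limma adjusted p of 0.376) and A_52_P372165 at -0.50, -0.39 and 0.31 (limma adjusted p of 0.672). The first was above 0 on 3 arrays and the second on replicate 3 only. Their means, 0.33 and -0.19, were 0.53 apart.

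**Figure D4:**
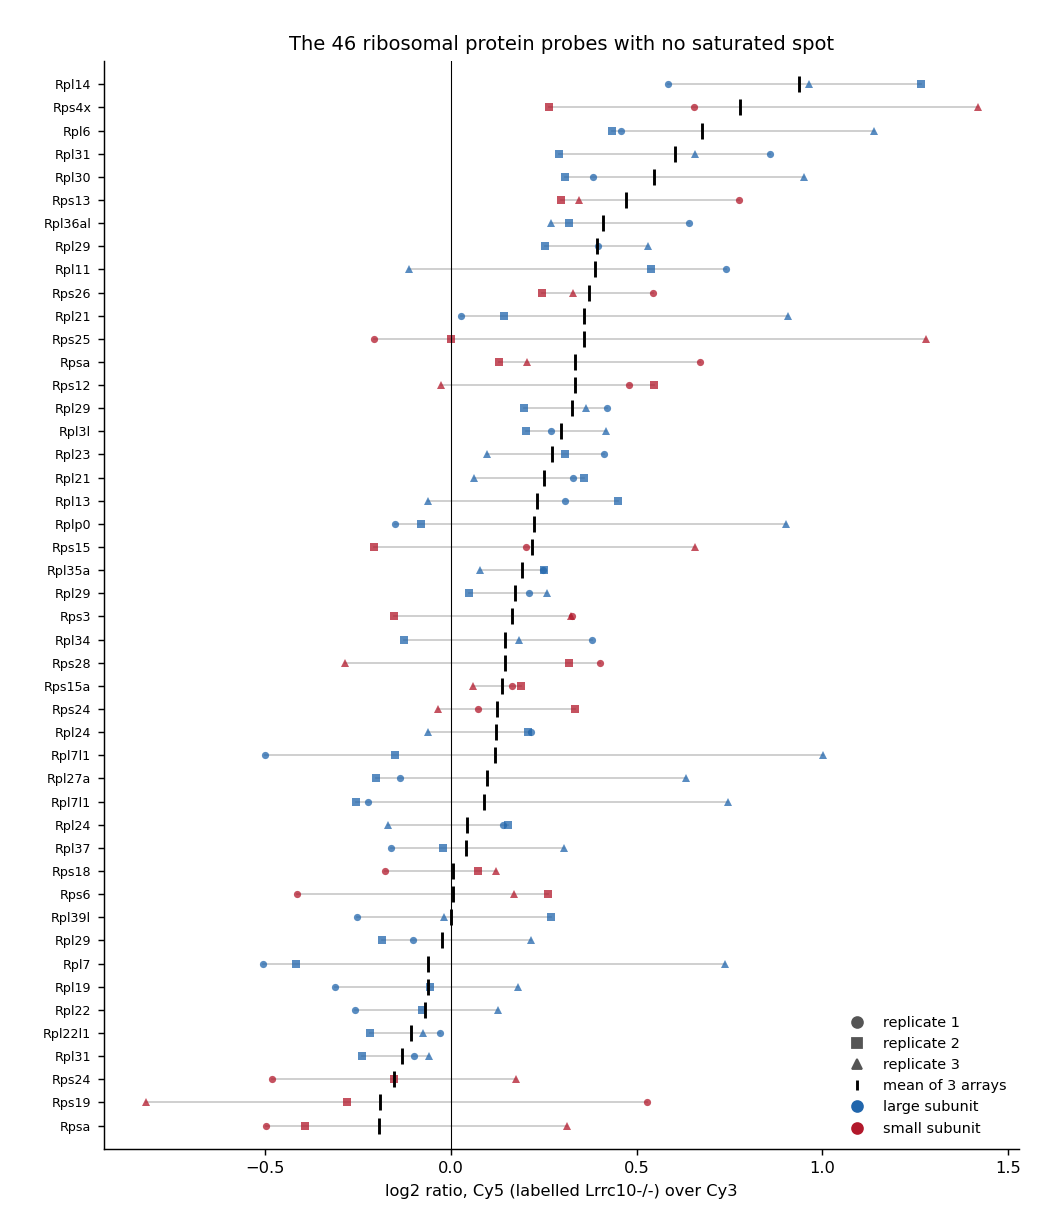
Log2 ratio of Cy5 over Cy3 (x axis) on each of the 3 arrays for the 46 tested ribosomal protein probes with no saturated spot, 1 line per probe, ordered by their mean, and a gene with several probes has several lines. Rpl14 at the top has all 3 arrays above 0.5, and the spread between arrays of many probes, such as those of Rps19, Rpl7l1 and Rps25, is larger than the distance of their mean from 0.

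Rpl29, a large subunit protein, was the gene with the most never-saturated probes and shows how far probes of the same gene can differ. In the order of the sequences below, its 4 probes had log2 ratios of 0.39, 0.25 and 0.53, of 0.21, 0.05 and 0.26, of 0.42, 0.20 and 0.36, and of -0.10, -0.19 and 0.21 on replicates 1, 2 and 3. After loess 3 of these probes were above 0 on all arrays and 1 was above 0 on replicate 3 only. In the deposited ratios A_52_P505977 was at 0.19, -0.05 and 0.09 and A_52_P326158 at 0.19, -0.02 and 0.17. The other Rpl29 probes were above 0 on all arrays there too. The means ran from -0.02 to 0.39, and none was called (limma adjusted p from 0.232 to 0.955).

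Rpl29 A_51_P400137: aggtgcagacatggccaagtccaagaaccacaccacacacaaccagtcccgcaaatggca
Rpl29 A_52_P505977: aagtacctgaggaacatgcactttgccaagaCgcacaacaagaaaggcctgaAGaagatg
Rpl29 A_52_P217069: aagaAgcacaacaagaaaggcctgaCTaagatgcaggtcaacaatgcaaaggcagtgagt
Rpl29 A_52_P326158: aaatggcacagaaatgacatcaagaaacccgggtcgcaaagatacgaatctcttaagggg

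The files place A_52_P505977 and A_52_P217069 on the same 33 bases of the forward strand, chr9:106333436-106333468 of mm9, yet their letters differ there at 3 positions, in capitals. Counted from the 5′ end of A_52_P505977, with its base first, the differences are C32A, A53C and G54T. At least 1 of the probes therefore does not match that stretch exactly, and their mean log2 ratios were 0.17 and 0.33. Processed pseudogenes of ribosomal protein genes are many and nearly identical, so signal at a probe of a member can come from more than 1 transcript. Of the 139 member probes, 2 shared a run of 30 bases with a probe outside the set (of Rpl17 and Rpl36), or 1.44%. Of the other probes, 0.424% shared such a run with any probe of another name. The search covered probes of the array and not the genome, so signal from pseudogenes was not tested.

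In 22 genes a never-saturated probe could be set beside a probe saturated in both channels on 1 or more arrays. The never-saturated probe had the higher mean log2 ratio in 18 of them. Because a spot saturated in both channels takes the fixed value of its array whatever the gene, this count describes where the never-saturated probes lay relative to that value and is no measure of a difference between the probes. Over the 7 members with 2 or more never-saturated probes, the median distance between the highest and the lowest was 0.28, against 0.23 over 6393 genes of the array.

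**Figure D5:**
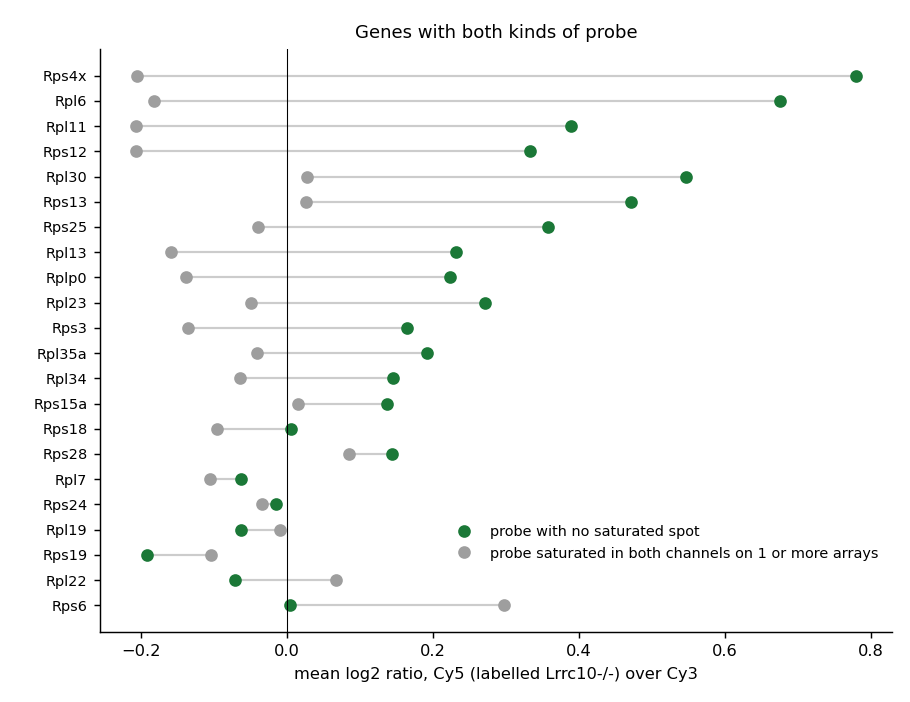
Mean log2 ratio over 3 arrays (x axis) of the probes with no saturated spot (green) and of the probes saturated in both channels on 1 or more arrays (grey), for the 22 genes that had both kinds, with probes of the same kind averaged. The green point lies to the right of the grey point in 18 genes, and the grey points include arrays on which the value is set by saturation.

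The stalk proteins Rplp0, Rplp1 and Rplp2 form the arm of the large subunit that recruits elongation factors. Rplp1 and Rplp2 were saturated in both channels on all 3 arrays and have no ratio. Rplp0 was read by 3 probes, of which A_51_P134602 was saturated in both channels on all arrays and A_52_P586574 in Cy5 on replicate 1 and in both channels on the others. The probe below (chr5:116010930-116010989 of mm9, forward strand) was never saturated and is shown because it was printed on 10 spots of each array, which gives the error within an array.

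Rplp0 A_51_P344103: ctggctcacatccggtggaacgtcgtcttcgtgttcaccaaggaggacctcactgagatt

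Its 10 spots averaged -0.15, -0.08 and 0.90 on replicates 1, 2 and 3, with an SD between spots of 0.31, 0.21 and 0.07. On replicate 1 the spots ran from -0.58 to 0.28, and on replicate 3 from 0.78 to 0.98. Replicate 3 stood apart from the others by more than the spread of its spots. The SD between the 3 arrays was 0.59, and the mean of 0.22 was not called (limma adjusted p of 0.689).

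Among the paralogues, Rpl3l, the form of striated muscle, had log2 ratios of 0.27, 0.20 and 0.42 on replicates 1, 2 and 3, above 0 on 3 of 3 arrays, with a mean of 0.30 ± 0.11 (SD, n = 3; limma adjusted p of 0.344). Rpl3, the ubiquitous form, was at -0.33 on replicate 1, saturated in both channels on replicate 2, and at a lower bound of 0.28 on replicate 3. Both forms were thus above 0 on replicate 3. They differed in sign on the 1 array where neither was saturated. On that array, replicate 1, the processed Cy5 signal was 190 at the Rpl3l probe and 65798 at the Rpl3 probe. The probes are shown because they tell the pair apart, that of Rpl3l lying within chr17:24872413-24872681 on the forward strand and that of Rpl3 within chr15:79910252-79910826 on the reverse strand of mm9, both over spans longer than the probe's 60 letters.

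Rpl3l: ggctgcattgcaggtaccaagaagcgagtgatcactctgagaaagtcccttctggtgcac
Rpl3: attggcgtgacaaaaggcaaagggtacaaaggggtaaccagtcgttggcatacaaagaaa

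Rpl36al, an intronless copy of Rpl36a, was at 0.64, 0.32 and 0.27, above 0 on 3 of 3 arrays (limma adjusted p of 0.240). Rpl36a itself could be read on replicate 1 only, where its 3 probes were at 0.40, 0.56 and 0.61, since both channels were saturated on the other arrays. The forms were thus on the same side of 0 on replicate 1. The Rpl36al probe lies at chr12:70284093-70284152 of mm9, on the reverse strand, and is shown because a copy so close to its parent is open to shared signal.

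Rpl36al: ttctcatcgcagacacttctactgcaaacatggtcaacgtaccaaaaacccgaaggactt

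Rpl22l1 and Rpl22, of which the first can stand in for the second, had values on both sides of 0 that differed between probes and arrays. The never-saturated probe of Rpl22l1 was at -0.03, -0.22 and -0.07 and that of Rpl22 at -0.26, -0.08 and 0.13. The brighter Rpl22l1 probe was at 0.29 on replicate 1, with a lower bound of -0.09 on replicate 2 and an upper bound of -0.67 on replicate 3, where only Cy3 was saturated. The brighter Rpl22 probe was at 0.42 on replicate 1, saturated in both channels on replicate 2, and at a lower bound of -0.07 on replicate 3. None was called (limma adjusted p from 0.735 to 0.880).

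Rpl7l1, a relative of Rpl7 with a part in ribosome assembly, had 2 never-saturated probes. They were at -0.22, -0.26 and 0.75 and at -0.50, -0.15 and 1.0 on replicates 1, 2 and 3. The dimmest of 3 Rpl7 probes was at -0.51, -0.42 and 0.74. All of them were below 0 on replicates 1 and 2 and above 0 on replicate 3. The other Rpl7 probes were saturated in both channels on replicate 2. Of these, A_52_P346326 was not saturated on replicate 1 and was at 0.19 there, on the other side of 0 from the dimmest probe. The brightest Rpl7 probe had a lower bound of -0.29 on replicate 1.

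Rpl39l, a form known from testis, was near background. Its tested probe was at -0.25, 0.27 and -0.02, and its other probe was too dim to be tested. Rpl39 was saturated in both channels on replicates 2 and 3, with a lower bound of 0.34 on replicate 1. Rps27l was at 0.26 on replicate 1, saturated in both channels on replicate 2, and at a lower bound of 0.16 on replicate 3. Rps27 gave no more than a lower bound on replicate 1, where Cy5 was saturated, and no ratio on the others, where both channels were.

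Rps4x, the X-linked form of a small subunit protein, was saturated in both channels on all 3 arrays at its main probe. The other probe carrying its name, A_52_P780667, has no position in mm9 in the files and was at 0.66, 0.26 and 1.42 (limma adjusted p of 0.179). It was above 0 on 3 of 3 arrays. Rpl10 was read by A_51_P495895, placed on chromosome X of mm9, and A_52_P171216, placed on chromosome 8. They were at -0.17 and -0.07 on replicate 1. On replicate 2 the first was saturated in both channels and the second had a lower bound of -0.14. On replicate 3 they had lower bounds of 0.36 and 0.28. The relatives Rpl10l and Rps4l were not among the names found here.

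Members with roles outside the ribosome were mostly at the limit. Rpl5 and Rpl11, which bind the p53 regulator Mdm2 when assembly stalls, were saturated in both channels on replicates 2 and 3 at their brightest probes, and Rpl11 also on replicate 1. A further Rpl11 probe, never saturated, was at 0.74, 0.54 and -0.11, above 0 on 2 of 3 arrays (limma adjusted p of 0.399). Rpl38, which shapes the translation of Hox messenger RNAs, had a lower bound of -0.30 on replicate 1 and was saturated in both channels on the others. Rps14, a small subunit protein known from a form of anaemia, could not be read on any array.

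Rpl13a, part of an interferon-driven translational block, was at 1.31 on replicate 1, the highest value of any member there, and then saturated in Cy5 on replicate 2 and in both channels on replicate 3. A single array holds that value. Rps6, the target of the S6 kinases, was at a lower bound of 0.83 on replicate 1 at its brightest probe, saturated in both channels on replicate 2, and at a lower bound of 0.18 on replicate 3. Its never-saturated probe was at -0.41, 0.26 and 0.17, with signs that differed between arrays.

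Rps26, a small subunit protein at the exit of the messenger RNA channel, was at 0.55, 0.25 and 0.33 at its only probe, above 0 on 3 of 3 arrays (limma adjusted p of 0.257). The probe lies within chr10:128062363-128063147 of mm9, on the reverse strand, and was never saturated. It is shown, chosen after its values were seen, as a small subunit gene with 1 clean probe.

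Rps26: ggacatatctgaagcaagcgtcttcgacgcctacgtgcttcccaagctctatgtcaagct

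The study's kind of selection asked for a change of at least 1.2-fold in the same direction on all 3 arrays in the deposited ratios, with the software's p under 0.05 on each. It found 2 members higher, Rpl14 and the unplaced Rps4x probe, or 1.47% against 2.18% of all probes, and 0 lower, against 0.131%. Without the p criterion the same number, 2, was higher, against 3.55% of all probes, but 11 members were at least 1.2-fold lower, or 8.09% against 1.51% of all probes. They were probes of Rpl7a, Rpl8, Rpl37a, Rpl38, Rplp0, Rps2, Rps3, Rps20, Rps23, Rps27 and Rps29. All 11 were saturated in both channels on 2 or 3 arrays. For Rpl7a the deposited log2 ratios were -0.90, -0.41 and -0.38, and for Rplp0 they were -0.80, -0.39 and -0.44. Members saturated in both channels had median deposited log2 ratios of -0.47, -0.23 and -0.36 on replicates 1, 2 and 3, and other probes at the limit had -0.42, -0.24 and -0.36.

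The arrays resembled each other unequally over the members. Across the 46 never-saturated probes Pearson's r was 0.60 between replicates 1 and 2, -0.07 between 1 and 3 and 0.06 between 2 and 3. Across all 27634 never-saturated probes it was 0.52, 0.22 and 0.22. These are correlations across probes, which share arrays and are not independent. Replicate 1 was scanned with another scanner and software version than replicates 2 and 3.

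RefSeq promoter windows (GRCm38.p6) were matched by symbol for 62 of the 83 member genes, which had 74 windows in all. A run of a C and at least 4 further Cs or Ts, read on the gene's strand and beginning within 5 bases of the start, was found in 41.9% of the members' windows and in 18.3% of all 32851 windows. It was found in 41.3% of large and 42.9% of small subunit windows. The 30 bases around the start are shown for the called gene, for 2 further genes with a run (capitals) and for 2 without, with 15 bases on each side of the start.

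Rpl14, chr9:120571502-120571531, forward: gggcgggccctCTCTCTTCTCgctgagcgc
Rps6, chr4:86857353-86857382, reverse: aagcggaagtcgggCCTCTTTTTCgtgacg
Rps26, chr10:128626492-128626521, reverse: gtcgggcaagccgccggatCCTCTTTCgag
Rpl36al, chr12:69184053-69184082, reverse: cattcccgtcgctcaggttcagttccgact
Rpl3l, chr17:24727811-24727840, forward: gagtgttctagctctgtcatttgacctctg

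A run of these letters is a description of the window and says nothing of the ratios. Rpl14 and Rps26 hold such a run, and Rpl36al and Rpl3l, with means of 0.41 and 0.30, hold none at the start listed.

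Genes that serve the ribosome were counted from lists written from general knowledge, 1 probe per gene, and none of their genes was called. Over all 18992 genes 344 were called higher and 1 lower, and the median log2 ratio was 0.03. Of 78 mitochondrial ribosomal protein genes, which make the ribosome of the organelle, 64 had a mean above 0, or 82.1% against 55.8% of all genes, with a median of 0.13. The brightest probe was saturated in 16 of them. Over the 72 with a never-saturated probe 56 were above 0, with a median of 0.12, where 10439 of 18564 of all genes were. Of the 78 genes 15 lay higher with a limma p under 0.05 before adjustment, or 19.2%, and 0 lower. Of all 18992 genes 2032 lay higher, or 11%, and 796 lower, or 4.19%. Mrpl20 was at 0.64, 0.40 and 0.47, Mrpl18 at 0.43, 0.30 and 0.63 and Mrps33 at 0.55, 0.30 and 0.47, each above 0 on 3 arrays (limma adjusted p of 0.131, 0.184 and 0.180). The medians of the never-saturated genes of that list were 0.07, 0.01 and 0.34 on the 3 arrays, so replicate 3 was the highest.

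RNA polymerase I subunits and their partners, which transcribe ribosomal RNA, had a median of 0.14 over 16 genes. Of these, 10 were above 0, or 62.5% against 55.8% of all genes. At an unadjusted p under 0.05, 4 were higher, or 25% against 11% of all genes, and 0 were lower, against 4.19%. Polr1d, a subunit shared with RNA polymerase III, was at 0.66, 0.32 and 0.96 (limma adjusted p of 0.118). For 79 tested ribosome biogenesis factors the median was 0.04. At that level 5 of them were higher, or 6.33% against 11% of all genes, and 6 were lower, or 7.59% against 4.19%. For 22 genes of the mTORC1 axis the median was -0.03, and -0.08 over the 21 with a never-saturated probe. For 38 initiation factors it was -0.02, and 0.01 over the 34 with a never-saturated probe. For 17 elongation factors and other TOP transcripts it was -0.04, but the brightest probe was saturated in 9 of them, and over the 12 with a never-saturated probe it was 0.12, with 8 above 0. Fau and Rack1, whose products are part of or bind the small subunit, were saturated at their brightest probes.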

How the data were processed

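RNA of 3 pairs of heart pools was read on 3 two-colour Agilent arrays, and the arrays are the replicates of the only group. The deposited spot intensities come, per the file headers, from a G2505B scanner with Feature Extraction 9.1.3.1 (replicate 1) or a G2505C scanner with version 10.7.3.1 (the other replicates), while the submitters' processing notes name version 9.5. The processed intensity was background-subtracted and dye-normalized by the authors' software. The deposited log10 ratio is processed Cy5 over processed Cy3, here turned to log2, and the deposited p-value is the software's own test within 1 array. The series table equalled these ratios (largest difference 0, medians -0.0081, -0.0060 and 0). With no dye swap, precision is set by how many arrays there are.

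From mean signals, limma 3.58.1 (R 4.3.3) gave log2 ratios by normexp on the local background (offset 50) and within-array loess that gave control spots a weight of 0. Non-uniform spots were left out and spots of 1 probe averaged. A probe was tested where it was well above background in the same channel on all 3 arrays (28330 probes), which left 3 members untested. Tests were limma's, two-sided, with Benjamini-Hochberg adjustment over all tested probes and a threshold of 0.05, and the script was tested on simulated data. Saturated spots were kept and marked. Members had a fitting name in at least 2 of the 3 files. A gene is represented by its tested probe of highest mean intensity where 1 probe per gene is used. Positions are those of the files (mm9), and no annotation of that build was used, so exons and untranslated regions were not assigned. The probes shown were picked by hand for clear identity. The named genes are Lrrc10, the paralogues with the genes they resemble, the stalk genes, Rpsa, Rps6, Rps19, Rps14, Rpl5, Rpl11, Rpl38 and Rpl13a, every called member, the 5 highest and 5 lowest never-saturated means and the members past the 1.2-fold rule. Members, lists and tests were chosen with earlier results of these data known. Alternatives covered background, normalization, filters, saturation, weights, the methods' t-test, a block for scanner and software version, base content and each left-out array. Combining never-saturated probes with other scalings, and counting names found in 1 file, were added after seeing the data.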

Additional observations from a re-analysis of the deposited data

How the results depend on the processing

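Lrrc10 kept its direction throughout, at 5.21 with the software's processed signals and with the series table (limma adjusted p of 0.277), 4.60 with ratios scaled between arrays (0.373) and 4.41 by the methods' t-test (0.504), where it was not called. The count of members called higher was 0 without background correction, with median centring, with processed signals or the series table, without the filter on dim probes, with scaling between arrays, by the methods' t-test, with the scanner and software version as a block and with base content corrected, and ran from 0 to 5 when each array was left out. The 5, without replicate 3, were probes of Rpl14, Rpl11, Rpl31, Rps12 and Rps13. Without that array 1540 probes of the whole array design were called higher, against 395 in the main setting. Among all probes 0 were called higher with processed signals, the series table, scaling between arrays or the methods' t-test. The number was 1 without background correction and 1 with the block for scanner and software version. It was 266 with median centring, 145 without the filter on dim probes and 354 with base content corrected. No member was called lower under any alternative.

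The median log2 ratio of the brightest probes was -0.05 over all members, -0.06 over large and -0.05 over small subunit genes. For all, large and small it was -0.16, -0.17 and -0.15 with median centring, -0.16, -0.13 and -0.25 with processed signals and with the series table (large minus small 0.13), and 0.14, 0.15 and 0.14 with saturated spots left out. It was 0.015 for large subunit genes with all probes of a gene averaged. With never-saturated probes it was 0.19, 0.19 and 0.19, and in combinations added after seeing the data 0.14, 0.14 and 0.13 with median centring and 0.20, 0.17 and 0.22 with processed signals. Leaving out each array moved it from -0.143 to -0.025 for all and from -0.139 to -0.034 for large subunit genes. The mean was above 0 for 29 to 41 of the 46 never-saturated members over all settings. By the 1.2-fold selection on deposited ratios with the software's p, 2 members were higher and 0 lower on all arrays, and with each array left out 3 to 4 were higher and 1 to 5 lower. Without the p criterion 11 were lower on all 3 arrays. With loess ratios and limma's unadjusted p in place of both, 7 were higher and 0 lower. Of 681 values of 44 named probes under alternatives, 61 changed sign with no call in either setting and 0 called values changed sign.

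No paired analysis was possible because the arrays form a single group, each already a ratio of 2 pools. With 3 arrays, small differences in members cannot be seen, and at saturated probes no depth of replication would help.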

Other observations

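The 6 probes named by the rule in 1 file only were those called Rps9, Rpl9, Rps20, Rps28, Rpl27a and Rpl35a in the file of replicate 1. Their mean log2 ratios ran from 0.09 to 0.45, and none was called (limma adjusted p from 0.194 to 0.852).

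Rps10, a small subunit protein, had log2 ratios of 1.27, 0.05 and 0.81 on replicates 1, 2 and 3, with Cy5 saturated on replicates 2 and 3, so that both are lower bounds (mean 0.71 ± 0.62, SD, n = 3; limma adjusted p of 0.234). Rps25 was at -0.21, 0.00 and 1.28 at its never-saturated probe, and Rps12 at 0.48, 0.55 and -0.03. Rps13 was at 0.77, 0.30 and 0.34, above 0 on 3 of 3 arrays (limma adjusted p of 0.212).

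Afp, a liver marker, was at 0.82, -5.15 and 0.77 on replicates 1, 2 and 3, and Alb at 0.81, -2.74 and 0.17. The median of the never-saturated members on replicate 2 was 0.17, and on replicates 1 and 3 it was 0.21 and 0.24. The part of liver RNA in the members' values was not tested.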
